A study of Aspergillus nidulans with 6 samples.

Results

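Transcription factor genes were taken from the genes whose transcripts differed between a celA deletion mutant of Aspergillus nidulans, a filamentous fungus, and its parent. A gene was a member when the annotation deposited with it named transcription, DNA binding or a DNA-binding domain (Zn(II)2Cys6, C2H2, zinc finger, bZIP, homeobox or forkhead). Of 78 genes that matched, 4 were set aside because they belong to a secondary metabolite or alcohol cluster, to conidiophore development or to a polymerase, and 74 of the 1375 listed genes remained. The domain named in the annotation put 50 of them in the Zn(II)2Cys6 group, 8 in the C2H2 group, 3 in a group that carries C2H2 fingers together with a Zn(2)-Cys(6) domain, 3 in bZIP, 3 in helix-loop-helix, 2 in homeobox and 1 in Myb, and 4 had another or no named domain. No measured value was used in the choice, but every listed gene had been selected by the authors for a difference in these same libraries.

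The control, also the parent of the mutant, was strain SAA.111, and 3 libraries were made from it. Its genotype combines ΔargB::trpC with the alleles veA1, wA3, biA1, pyroA4 and riboB2. The mutant, celAΔ, is SAA.111 in which celA (ANIA_08444), a putative mixed-linkage glucan synthase gene of the cell wall, was replaced by the argB marker, and it also gave 3 libraries. Both strains therefore carry the veA1 allele of the velvet developmental regulator and the auxotrophies, while an intact argB is present in celAΔ only. celAΔ is 1 stable transformant, and no library carries the marker with celA intact, so the deletion, the marker and the history of this clone cannot be told apart. RNA came from whole mycelium after 3 days at 37 °C in liquid minimal medium, although 96 h is also given for the RNA-Seq time point. The labels number the replicates, and the study calls them biological ones.

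Zn(II)2Cys6 proteins are the large class of regulators found almost exclusively in fungi. Their cysteines hold a pair of zinc ions in a cluster that reads short CGG-type triplets, and many of them act on a single pathway, often a catabolic route or a gene cluster in which the regulator itself lies. C2H2 fingers, bZIP, helix-loop-helix, homeobox and Myb domains are shared with other eukaryotes. In A. nidulans such factors include regulators of carbon and nitrogen use, stress and conidiation. The activity of a transcription factor is often set by its localisation, splicing or ligand, so its transcript level is only part of its regulation.

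The measurements were unique gene reads, which are counts, and RPKM, reads corrected for gene length and for a library's mapped total. Mapped totals were 3300251 to 3706233 reads in the control and 4176645 to 5205011 in celAΔ, and the 74 genes held 27475 to 49807 unique reads per library. The targeted gene gave 198, 197 and 111 control reads, against 33, 38 and 36 in celAΔ, and argB gave 4, 4 and 2 against 8150, 15329 and 11624, so celA was low and argB high in each library that the labels call downregulated for celA. Residual celA reads were present in each of them. The study names leftover heterokaryons as a likely source of these reads, which was not tested here. Among the controls, replicate 3 stood apart from the other control libraries. The 4 listed markers of conidiation, the making of asexual spores, were ANIA_05015, ANIA_10628, ANIA_05086 and flbD. ANIA_05015, ANIA_10628 and ANIA_05086 are annotated as conidiation-specific, similar to a SpoC1 protein and conidium-specific. The annotation of flbD is that of a transcription factor involved in conidiophore development. The 4 genes summed to 41.0, 40.7 and 1247 RPKM in control replicates 1, 2 and 3 and to 1623, 2517 and 3389 RPKM in celAΔ. All 4 were high in control replicate 3, and 1 of the 4 passed the test between strains. In bulk mycelium a change in the number of cells of a type and a change in RNA per cell cannot be told apart. Where control replicate 3 moves with a member below, its value is given, and its part in the result was not tested.

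Fewer of the 74 genes were higher than lower in celAΔ. By mean RPKM, 23 were higher and 51 lower, so that 68.9% were lower, beside 53.3% of all listed genes. With edgeR's quasi-likelihood test, a Benjamini-Hochberg adjusted p-value under 0.05 over the 1375 listed genes and an absolute log2 FC (log2 fold change, celAΔ over control) over 1, 23 rose, 49 fell and 2 did not pass. The 72 that passed are 97.3% of the members, beside 93.6% of all listed genes, a background that the authors' selection fixes and against which the count says nothing particular about transcription factors. By direction, 41.1% of the listed genes rose and 52.5% fell. In all 74 genes the RPKM ranges of the strains did not overlap, which held for 100.0% of the listed genes. DESeq2, whose size factors moved the median log2 FC of the listed genes by 0.68, called 23 higher and 19 lower, so that 54.8% of its calls were higher against 31.9% in edgeR. Over all 1375 listed genes DESeq2 called 613 higher and 346 lower, so higher calls outnumbered lower ones there too. The signs of the members' log2 FC were unchanged by it, with 23 positive and 49 negative. The named genes whose lower call DESeq2 did not make, with log2 FC between -0.85 and -0.37 there, were AmyR, FarB, AmdR, TamA, HacA, GRISEA, Con7, Hpa3, Spt4, ANIA_03075, ANIA_05048, ANIA_06747, ANIA_07012, ANIA_07580 and ANIA_10108. With p-values adjusted over all 10516 loci of the assembly ASM1142v1, 8 members rose and 18 fell, which is 35.1% of them beside 38.1% of the listed genes. Of the genes with a name AmyR alone passed that adjustment. The p-values measure the spread between these libraries only, and since the genes were selected on them they are not independent evidence.

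**Figure D1:**
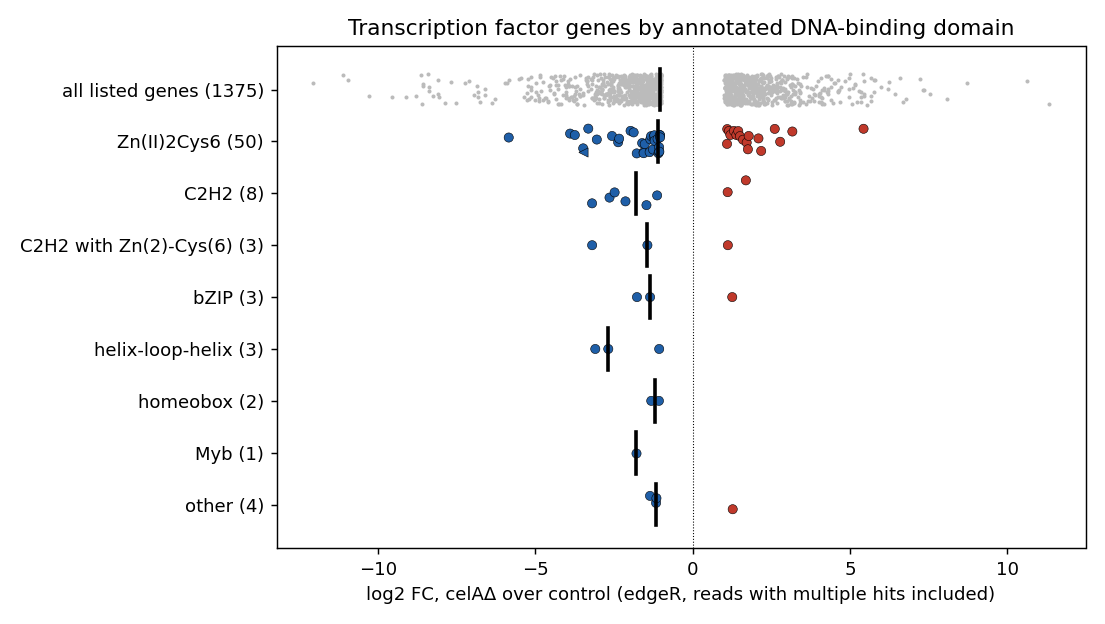
log2 FC (celAΔ over control, reads with multiple hits included) of each of the 74 genes, by DNA-binding domain, with 1 point per gene, red above 0 and blue below, and a vertical bar at each median. Of the 50 Zn(II)2Cys6 genes 18 lie above 0, whereas helix-loop-helix, homeobox and Myb hold points below 0 only. The triangle is ANIA_06430, without a read in celAΔ, drawn at its bound, and grey points are all listed genes at their fitted values.

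By domain, the Zn(II)2Cys6 group, which is 50 of the 74 members, held most of the genes that rose. Of its 50 genes 18 rose and 32 fell, with a median log2 FC of -1.10 beside -1.04 over all listed genes. A lower mean in celAΔ was found in 64.0% of them, beside 53.3% of the listed genes. Of the 24 genes outside that group 5 rose and 17 fell, and 79.2% had a lower mean in celAΔ. Among all listed genes 41.1% rose and 52.5% fell. Of the 8 C2H2 genes 2 rose and 4 fell, and the other 2 had no unique read. In the group with C2H2 and Zn(2)-Cys(6) 1 gene rose and 2 fell, and in bZIP again 1 rose and 2 fell. The 3 helix-loop-helix, 2 homeobox and 1 Myb genes fell. Of the 4 others 1 rose and 3 fell. The plot of log2 FC by domain shows these counts, and the difference between domains was not tested. The size of the changes was moderate: with reads of multiple hits included, the median log2 FC of the 23 higher members was 1.50 and that of the 51 lower ones was -1.53, beside 1.89 and -1.73 in all listed genes. A log2 FC of 3 or more in either direction was found in 12 members, or 16.2%, beside 20.4% of the listed genes. In level the members resembled the listed genes as a whole, with a median RPKM of 24.6 in the control and 18.8 in celAΔ, beside 23.7 and 19.2.

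Among the genes that rose, the Zn(II)2Cys6 gene ANIA_04933 stood far from the rest. Its RPKM was 4.52, 10.4 and 17.6 in control libraries and 532, 449 and 425 in celAΔ, from 18, 37 and 68 and 2652, 2512 and 1905 unique reads. All celAΔ libraries were therefore more than an order of magnitude above every control library. The mean rose 43.3-fold, from 10.8 ± 6.52 to 469 ± 56.4 RPKM (SD, n = 3), with log2 FC 5.43, SE 0.59, adjusted p = 0.00125. Across the 6 fits that left out 1 library the log2 FC was 5.06 to 5.98. The annotation gives this gene no name beyond its domain.

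The next in size were ANIA_08930 and ANIA_08636, both Zn(II)2Cys6 genes without a name of their own. ANIA_08930 was at 32.0, 35.7 and 264 RPKM in the parent and 791, 1123 and 1068 RPKM in celAΔ. The means were 111 ± 133 and 994 ± 178 RPKM, with log2 FC 3.17, SE 0.89, adjusted p = 0.0131. Control replicate 3 lay between the other controls and celAΔ, and without it the log2 FC was 4.88. ANIA_08636 was at 36.1, 32.3 and 273 RPKM in SAA.111 against 867, 708 and 773 RPKM in celAΔ, with log2 FC 2.78, SE 0.87, adjusted p = 0.0185. It behaved alike in the control, where replicate 3 was the high library. Its log2 FC was 4.52 without control replicate 3, and without celAΔ replicate 1 it no longer passed. In celAΔ both genes were among the most abundant members, with mean levels of 994 ± 178 and 783 ± 79.8 RPKM.

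ANIA_08645 and ANIA_07346 changed with a tighter control. ANIA_08645 was at 5.63, 5.24 and 4.79 RPKM in the control against 23.0, 40.9 and 31.9 RPKM in celAΔ, with means of 5.22 ± 0.422 and 31.9 ± 8.99 and log2 FC 2.61, SE 0.33, adjusted p = 0.00140. ANIA_07346 was at 33.2, 33.8 and 24.6 RPKM in the parent and 151, 128 and 135 in celAΔ, with means of 30.6 ± 5.14 and 138 ± 11.4 and log2 FC 2.18, SE 0.31, adjusted p = 0.00176. In both genes control replicate 3 was the lowest control library, on the far side from celAΔ, and both passed in all 6 fits that left out a library. ANIA_07343, which lies within 3 loci of ANIA_07346 and was chosen after its values were seen, was at 10.6, 10.1 and 16.3 RPKM in SAA.111 against 34.5, 38.0 and 32.0 RPKM in celAΔ, with log2 FC 1.50, SE 0.31, adjusted p = 0.00507.

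In 2 further Zn(II)2Cys6 genes control replicate 3 was again the high control library. ANIA_00742 was at 22.6, 20.9 and 73.4 RPKM in the control against 139, 132 and 123 RPKM in celAΔ, with log2 FC 1.75, SE 0.54, adjusted p = 0.0175. The log2 FC was 2.59 without control replicate 3, and the gene did not pass without control replicate 1 or without control replicate 2. ANIA_06396, a low gene, was at 0.349, 1.05 and 2.51 RPKM in the parent and 3.72, 4.14 and 5.06 RPKM in celAΔ, from 3, 8 and 21 and 40, 50 and 49 reads, with log2 FC 1.71, SE 0.57, adjusted p = 0.0222. Its log2 FC was 2.63 without control replicate 3, and the call was lost when celAΔ replicate 2, celAΔ replicate 3 or control replicate 2 was left out.

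SclB (ANIA_00585), a Zn(II)2Cys6 factor known to act in asexual development of A. nidulans, was the only named one of this domain to rise. Its RPKM was 23.1, 27.0 and 11.4 in control libraries and 51.3, 46.9 and 54.3 in celAΔ. The means were 20.5 ± 8.10 and 50.9 ± 3.72 RPKM, with log2 FC 1.31, SE 0.37, adjusted p = 0.0135, and every fit that left out a library kept the call. Control replicate 3 was its lowest control library, although the conidiation markers were high there. Without that library the log2 FC was 1.02. The other 10 Zn(II)2Cys6 genes that rose, ANIA_07343 among them, had log2 FC of 1.09 to 2.09, with mean levels of 2.44 to 62.5 RPKM in SAA.111 and 10.4 to 163 RPKM in celAΔ, and a highest adjusted p of 0.0236.

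Of the C2H2 genes 2 rose. ANIA_01997 was at 53.9, 65.5 and 74.7 RPKM in SAA.111 against 284, 165 and 177 RPKM in celAΔ, and celAΔ replicate 1 was the highest library. Its means were 64.7 ± 10.5 and 209 ± 65.5 RPKM, with log2 FC 1.69, SE 0.36, adjusted p = 0.00556. ANIA_04021 was at 36.8, 38.9 and 47.0 RPKM in the control against 71.2, 88.3 and 105 RPKM in celAΔ, with log2 FC 1.11, SE 0.30, adjusted p = 0.0111, and it did not pass without celAΔ replicate 3. C2H2 fingers are small zinc-bound folds that usually work in tandem, and the annotation names no process for either gene. ANIA_09025, which combines C2H2 and Zn(2)-Cys(6) domains, was at 40.9, 51.9 and 43.6 RPKM in the parent and 108, 95.6 and 92.3 RPKM in celAΔ, with log2 FC 1.12, SE 0.30, adjusted p = 0.0109. Without control replicate 1 it did not pass.

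The bZIP gene ANIA_04324 and the CBF/NF-Y gene ANIA_01225 completed the genes that rose. bZIP proteins bind DNA as dimers through a basic region beside a leucine zipper. ANIA_04324 was at 64.0, 70.4 and 185 RPKM in SAA.111 against 317, 209.6 and 237 RPKM in celAΔ, with log2 FC 1.26, SE 0.48, adjusted p = 0.0377. Control replicate 3 was again the control library closest to celAΔ. Of the 6 fits without 1 library only the one without control replicate 3 kept the call, with a log2 FC of 1.92. ANIA_01225 (cbfA in the assembly), annotated as a CBF/NF-Y family factor, was at 10.9, 9.35 and 21.7 RPKM in the control against 29.7, 43.3 and 28.4 RPKM in celAΔ, with log2 FC 1.27, SE 0.40, adjusted p = 0.0187. The CBF/NF-Y complex binds CCAAT boxes in promoters. The call was lost when control replicate 1, control replicate 2 or else celAΔ replicate 2 was left out.

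**Figure D2:**
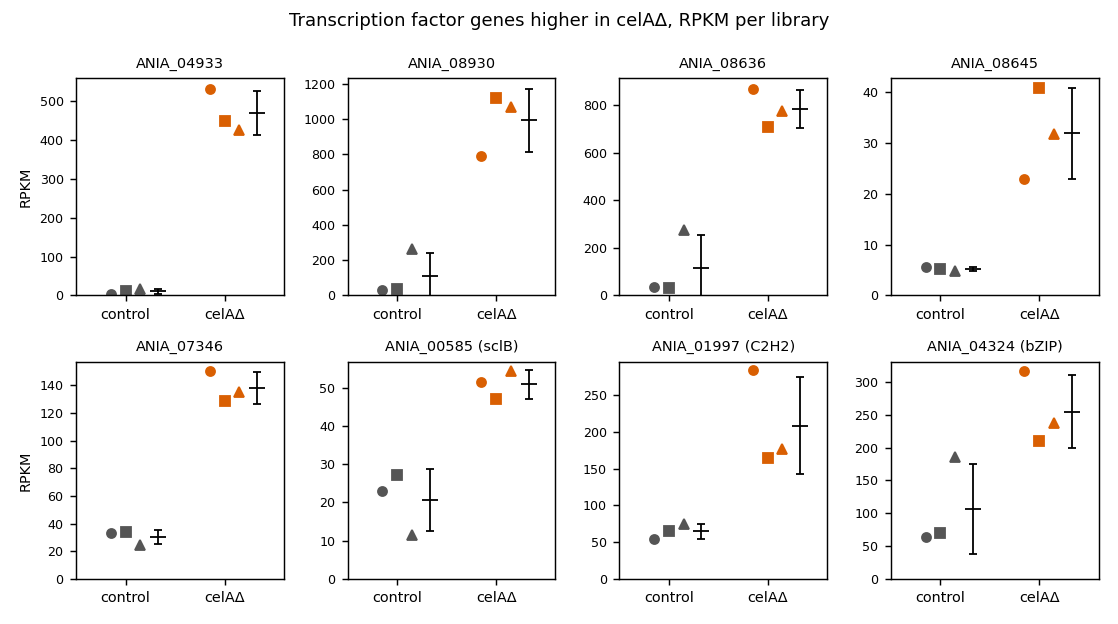
RPKM in each library of 8 members that were higher in celAΔ, on a linear axis from 0, with replicates 1, 2 and 3 as circle, square and triangle, the strain mean as a horizontal bar and the SD as whiskers, cut at 0. ANIA_04933 moves from 10.8 to 469 RPKM, and in ANIA_08930 and ANIA_08636 control replicate 3 lies between the other controls and celAΔ.

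AmyR, FarB, AmdR and TamA, which have known roles in carbon or nitrogen use, fell. AmyR (ANIA_02016) activates starch-degrading enzymes in Aspergillus. Its RPKM was 35.9, 40.2 and 20.1 in control libraries and 9.65, 10.4 and 12.5 in celAΔ. The means were 32.1 ± 10.6 and 10.9 ± 1.48 RPKM (SD, n = 3), with log2 FC -1.56, SE 0.35, adjusted p = 0.00649, and all fits without 1 library kept the call. Control replicate 3 was the control library closest to celAΔ. Listed genes of starch use, found by annotation words, were 2, and both fell: alpha-amylase ANIA_03388, from a mean of 6.63 to 0.299 RPKM (log2 FC -4.34), and MFS maltose transporter ANIA_02601, from 70.5 to 6.70 RPKM (log2 FC -3.39). Control replicate 3 was the low control library in both, at 2.99 beside 7.96 and 8.94 RPKM in ANIA_03388 and at 33.3 beside 88.3 and 90.0 RPKM in ANIA_02601. The fold of ANIA_03388 rests on few reads, with 41, 41 and 15 in the control and 0, 4 and 2 in celAΔ. An alpha-1,4-glucosidase gene next to amyR, ANIA_02017, had a log2 FC of -1.09. The words did not catch it, and it was chosen for mention after its values were seen. Among all listed genes 52.5% fell.

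FarB (ANIA_01425) acts in the use of short-chain fatty acids in A. nidulans. It was at 66.7, 61.6 and 61.1 RPKM in the parent and 21.2, 28.6 and 29.1 RPKM in celAΔ, among the tightest of the named members. The means were 63.1 ± 3.06 and 26.3 ± 4.42 RPKM, with log2 FC -1.26, SE 0.29, adjusted p = 0.00704, and the call held in all fits without 1 library. Of 9 listed genes whose annotation names fatty acid activation, beta-oxidation or carnitine transfer 3 rose and 5 fell, with a median log2 FC of -1.05 beside -1.04 over all listed genes. Those that fell included 3-hydroxyacyl-CoA dehydrogenase ANIA_03564 (log2 FC -2.89) and acyl-CoA dehydrogenase ANIA_00824 (log2 FC -1.46), while carnitine acetyltransferase FacC (ANIA_01059), which moves acetyl groups between compartments, had a log2 FC of 1.20.

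AmdR activates genes for the use of acetamide, lactams and omega-amino acids. The amdR gene was at 22.5, 24.2 and 20.5 RPKM in SAA.111 against 7.88, 11.8 and 12.4 RPKM in celAΔ. The means were 22.4 ± 1.87 and 10.7 ± 2.44 RPKM, with log2 FC -1.07, SE 0.29, adjusted p = 0.0121. It did not pass without celAΔ replicate 1, the lowest library. Of 6 listed genes caught by the words for its targets 2 rose and 4 fell. Their median log2 FC was -1.85, beside -1.04 over all listed genes. However, 4 of these are beta-lactamase-type genes, which share only the word. The other 2 were 4-aminobutyrate aminotransferase ANIA_02248 (log2 FC -1.93) and the putative acetamidase ANIA_10210 (log2 FC -1.76), and both fell. The control libraries were at 158, 179.5 and 70.0 RPKM in the first and 34.6, 28.9 and 13.5 RPKM in the second, with replicate 3 lowest.

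TamA (ANIA_02944) is a co-activator of the GATA factor AreA in nitrogen regulation. It was at 75.5, 91.2 and 58.1 RPKM in the control against 10.0, 40.6 and 39.0 RPKM in celAΔ. celAΔ replicate 1 was far below the other libraries of its strain. The call, with log2 FC -1.33, SE 0.54, adjusted p = 0.0449, held in only 1 of the 6 fits without 1 library, the one without control replicate 3. In those fits the log2 FC was -1.61 to -0.91. Of 6 listed genes for ammonium, nitrate, urea or urate use 2 rose and 3 fell. Their median log2 FC was 0.07, beside -1.04 over all listed genes. Urease accessory protein UreG (ANIA_00232) and uricase (ANIA_09470) had log2 FC of -1.28 and -1.13, and the high-affinity ammonium transporter ANIA_00209 had 1.27. Their control libraries were at 140, 125 and 94.5, at 113, 113 and 69.8, and at 6.66, 13.0 and 25.4 RPKM. In each of these genes replicate 3 was the control library closest to celAΔ. Of the others, ANIA_08390 had -2.24, and ANIA_08647 had 4.02 on 2, 0 and 0 control reads. ANIA_08449, with 0, 0 and 74 control reads, did not pass.

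HacA (ANIA_09397), the bZIP factor of the unfolded protein response, which induces chaperones and folding enzymes of the endoplasmic reticulum, was one of the most abundant members. Its RPKM was 792, 754 and 889.6 in control libraries and 463, 245 and 243 in celAΔ, with celAΔ replicate 1 the highest of its strain. The means were 812 ± 69.9 and 317 ± 126 RPKM, with log2 FC -1.36, SE 0.39, adjusted p = 0.0141. The call was lost without celAΔ replicate 2 or celAΔ replicate 3. HacA is known to be activated by splicing of its mRNA, and gene-level counts do not separate the spliced form. Protein disulfide isomerase A (ANIA_07436), a folding enzyme, fell from 402 ± 85.5 to 181 ± 45.2 RPKM (log2 FC -1.15), and the translocon subunit Sec61beta (ANIA_00417) had a log2 FC of -1.13. The control libraries were at 444, 458 and 303 RPKM in the first and 125, 125 and 89.1 RPKM in the second. Replicate 3 was thus the lowest control library in both, whereas it was the highest in HacA. Words for secretion caught 1 more listed gene, a tubulin-specific chaperone (ANIA_03022, log2 FC 1.74), which acts outside that pathway and was at 74.9, 56.9 and 284 RPKM in the control.

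JlbA (ANIA_01812), a bZIP factor of A. nidulans whose transcript is known to increase on amino acid starvation, had the highest level of all members in the control. Its RPKM was 3471, 3227 and 1410.1 in control libraries and 839, 748 and 785 in celAΔ. The means were 2703 ± 1126 and 791 ± 45.5 RPKM, with log2 FC -1.77, SE 0.44, adjusted p = 0.00914. In the control replicate 3 was the low library, and without it the log2 FC was -2.08. All fits without 1 library kept the call.

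The gene annotated as GRISEA (ANIA_00658, mac1 in the assembly), named after a copper-dependent factor of Podospora anserina, was at 17.5, 18.2 and 13.8 RPKM in the parent and 4.27, 5.91 and 9.16 RPKM in celAΔ. It fell from 16.5 ± 2.36 to 6.44 ± 2.49 RPKM, with log2 FC -1.36, SE 0.35, adjusted p = 0.0103, and the call held in all fits without 1 library. Among 7 listed genes with words for copper or iron handling 2 rose and 5 fell. Their median log2 FC was -2.17, beside -1.04 over all listed genes, of which 52.5% fell. Summed over the 7 genes, the control libraries were at 683, 655 and 358 RPKM, with replicate 3 lowest, and celAΔ at 209, 184 and 188 RPKM. Cytosolic Cu/Zn superoxide dismutase ANIA_01131 fell from 313 to 89.8 RPKM (log2 FC -1.80), and 3 copper amine oxidases fell. The Ctr copper transporter gene ANIA_03813, whose family imports copper, rose from 25.9 to 59.8 RPKM (log2 FC 1.21). Among the genes that fell was ferricrocin synthetase, which makes an iron siderophore and does not handle copper.

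The C2H2 genes that fell included some of the more abundant members. ANIA_04720 was at 198, 192 and 91.5 RPKM in SAA.111 against 17.6, 17.1 and 17.5 RPKM in celAΔ. It fell from 161 ± 59.9 to 17.4 ± 0.261 RPKM, with log2 FC -3.20, SE 0.39, adjusted p = 0.00132, and control replicate 3 was the low control library. ANIA_08741 was at 114, 117 and 168 RPKM in the control against 27.9, 32.6 and 29.9 RPKM in celAΔ, with log2 FC -2.14, SE 0.30, adjusted p = 0.00176. In that gene control replicate 3 was the highest library. ANIA_05929, named Con7 after a factor needed for conidium morphology in the rice blast fungus Magnaporthe oryzae, was at 112, 93.2 and 68.9 RPKM in the parent and 24.4, 33.8 and 40.8 RPKM in celAΔ, with log2 FC -1.47, SE 0.34, adjusted p = 0.00722. ANIA_07580 was at 86.7, 68.7 and 71.1 RPKM in SAA.111 against 35.3, 37.7 and 30.2 RPKM in celAΔ, with log2 FC -1.13, SE 0.28, adjusted p = 0.00855. All 4 kept their calls in every fit without 1 library.

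The 2 members that did not pass, ANIA_05252 and ANIA_09240, are C2H2 genes of 594 bases each with 0 unique reads in every library. Their RPKM rests on reads that map to more than 1 gene, and the files do not say which genes share them. ANIA_05252 was at 142, 142 and 59.3 RPKM in the control against 25.8, 15.5 and 13.3 RPKM in celAΔ, and ANIA_09240 was at 136, 148 and 52.7 and 25.8, 16.5 and 17.7 RPKM. The values of both genes were similar library by library. Summed over both, the reads were 611, 568 and 240 in the control and 142, 99 and 77 in celAΔ, or 165, 172 and 66.5 against 30.6, 19.0 and 18.4 when scaled to mapped reads like RPKM but not to length. When reads with multiple hits were counted, an alternative chosen after seeing the data, the log2 FC was -2.65 (SE 0.46, edgeR adjusted p = 0.00301) and -2.48 (SE 0.46, adjusted p = 0.00365). As the genes may share the same reads, these are not independent values, and which of the genes that share the reads changed cannot be told apart. Control replicate 3 was the lowest control library in both. Of all listed genes 8 had no unique read.

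**Figure D3:**
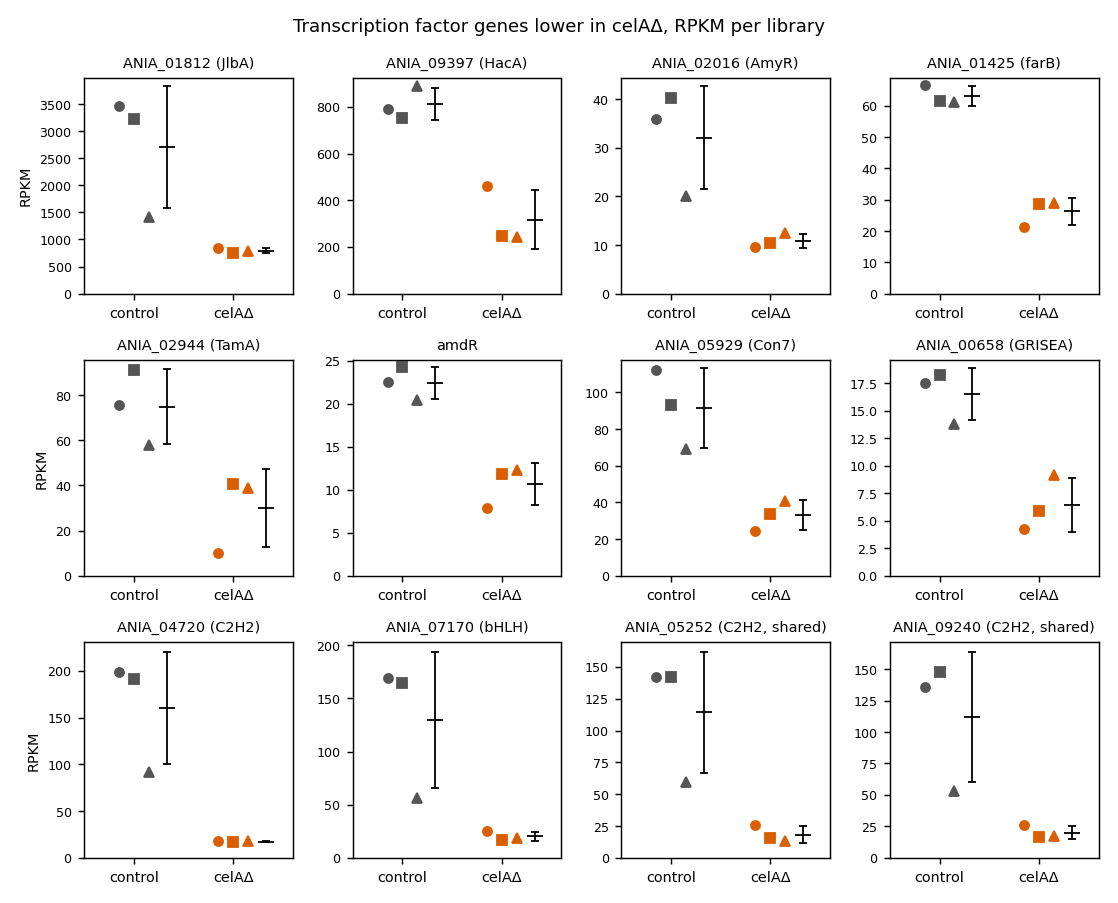
RPKM in each library of 12 members that were lower in celAΔ, drawn in the same way, with replicates 1, 2 and 3 as circle, square and triangle, means as horizontal bars and SD as whiskers. JlbA lies highest, at a mean of 2703 RPKM in the control against 791 RPKM in celAΔ, and in TamA celAΔ replicate 1 lies below the other celAΔ libraries.

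Of the genes with both C2H2 and Zn(2)-Cys(6) domains 2 fell. ANIA_07118 was at 4.81, 5.91 and 3.45 RPKM in the parent and 0.579, 0.452 and 0.483 RPKM in celAΔ, with log2 FC -3.20, SE 0.36, adjusted p = 0.00130. ANIA_06747 was at 31.8, 31.6 and 17.4 RPKM in SAA.111 against 6.57, 11.6 and 11.5 RPKM in celAΔ, with log2 FC -1.44, SE 0.38, adjusted p = 0.0109. Both calls held in every fit without 1 library. The Myb gene ANIA_05118, of a family that binds DNA through repeated helices, was at 12.8, 21.7 and 9.79 RPKM in the control against 3.90, 3.48 and 5.16 RPKM in celAΔ, with log2 FC -1.82, SE 0.39, adjusted p = 0.00599. It too passed in all 6 such fits.

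Helix-loop-helix proteins bind E-box sites as dimers. ANIA_07170 of this group was at 169, 165 and 56.2 RPKM in the parent and 24.8, 17.0 and 18.7 RPKM in celAΔ, with log2 FC -2.69, SE 0.48, adjusted p = 0.00331. Its control replicate 3 was the low control library, and it passed in all 6 fits without 1 library. ANIA_07552, annotated as Hpa3, was at 22.3, 20.9 and 34.6 RPKM in SAA.111 against 13.3, 13.8 and 9.99 RPKM in celAΔ, with log2 FC -1.07, SE 0.33, adjusted p = 0.0170. Its highest library was control replicate 3. Without that library the log2 FC was -0.80 and the call was lost, as it was without celAΔ replicate 3. ANIA_02392 was near the limit of detection, with 5, 9 and 8 control reads and 0, 0 and 3 in celAΔ. Per mapped read the control was 9.69 times celAΔ over the summed 22 and 3 reads (95% interval 2.91 to 50.6, exact, counting error only).

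Homeobox proteins carry a helix-turn-helix fold and in fungi often act in mating or development. ANIA_05048 was at 23.7, 24.4 and 16.04 RPKM in the control against 9.49, 8.77 and 7.42 RPKM in celAΔ, with log2 FC -1.32, SE 0.30, adjusted p = 0.00663, and passed in all 6 fits without 1 library. ANIA_07012 was at 21.0, 23.2 and 12.5 RPKM in the parent and 6.69, 9.13 and 11.1 RPKM in celAΔ, with log2 FC -1.08, SE 0.35, adjusted p = 0.0214. It passed in only 2 of these fits and not when either control replicate 1 or 2, or either celAΔ replicate 1 or 2, was left out. Spt4 (ANIA_10280), a transcription elongation factor and not a DNA-binding regulator in the usual sense, was at 106, 96.0 and 58.8 RPKM in SAA.111 against 25.5, 56.1 and 35.0 RPKM in celAΔ, with log2 FC -1.15, SE 0.39, adjusted p = 0.0248. It also passed in 2 of the 6 fits, and not when either control replicate 1 or 2, or either celAΔ replicate 1 or 3, was left out. ANIA_10108, of no named domain, was at 76.7, 67.3 and 54.6 RPKM in the control against 38.8, 25.9 and 23.8 RPKM in celAΔ, with log2 FC -1.17, SE 0.31, adjusted p = 0.0114, and was lost without celAΔ replicate 2 or celAΔ replicate 3.

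The 5 Zn(II)2Cys6 genes with the lowest log2 FC and more than 3 reads in some library of each strain have no name of their own, and control replicate 3 was the low control library in 3 of them. ANIA_08778 gave 67, 97 and 29 control reads and 0, 0 and 4 in celAΔ, with log2 FC -5.85, SE 0.96, adjusted p = 0.00261, and without celAΔ replicate 3, which holds its only reads in celAΔ, no read is left in celAΔ and no fold is given. ANIA_05859 was at 16.01, 17.3 and 6.15 RPKM in the parent and 0.775, 0.691 and 1.15 RPKM in celAΔ, with log2 FC -3.90, SE 0.52, adjusted p = 0.00156. ANIA_02672 was at 18.3, 19.1 and 6.21 RPKM in SAA.111 against 1.01, 1.08 and 1.12 RPKM in celAΔ, with log2 FC -3.75, SE 0.51, adjusted p = 0.00160. These last genes gave similar levels to each other in both strains. ANIA_10659 was at 4.44, 2.94 and 6.98 RPKM in the control against 0.418, 0.372 and 0.464 RPKM in celAΔ, with log2 FC -3.48, SE 0.46, adjusted p = 0.00155. ANIA_07061 was at 5.96, 5.09 and 5.15 RPKM in the parent and 0.191, 0.934 and 0.423 RPKM in celAΔ, with log2 FC -3.32, SE 0.48, adjusted p = 0.00183. Without celAΔ replicate 2, its highest celAΔ library, the log2 FC of ANIA_07061 was -4.10. All 5 kept their calls in every fit without 1 library.

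The most abundant Zn(II)2Cys6 gene in the control was ANIA_03075. It was at 703, 761 and 365 RPKM in SAA.111 against 287, 239.6 and 248 RPKM in celAΔ, with log2 FC -1.24, SE 0.39, adjusted p = 0.0192. The call held in 2 of the 6 fits without 1 library, those without control replicate 3 and without celAΔ replicate 1. In 20 of the other Zn(II)2Cys6 genes that fell the log2 FC was -3.05 to -1.04, with mean levels of 1.35 to 81.9 RPKM in SAA.111 and 0.447 to 35.1 RPKM in celAΔ, and the highest adjusted p was 0.0260. The remaining 2 had at most 3 reads in each celAΔ library and were chosen for mention after their values were seen. ANIA_06430 gave 30, 30 and 16 control reads and 0, 0 and 0 in celAΔ, and against a floor of 3 reads per library it was at least 11.1-fold lower. ANIA_01829 gave 4, 2 and 3 against 0, 1 and 1 reads, a ratio of control to celAΔ of 5.94 per mapped read (95% interval 1.23 to 56.5, exact, counting error only).

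Control replicate 3 was shifted toward celAΔ in most members, as in the listed genes as a whole. Of the 23 higher members it lay above both other controls in 16 (69.6%, beside 74.5% of the listed higher genes), and of the 51 lower members it lay below both in 38 (74.5%, beside 75.2%). Large shifts were fewer: it was at least 2 times the higher of the other controls in 5 higher members (21.7%, beside 49.7%), namely ANIA_08930, ANIA_08636, ANIA_00742, ANIA_04324 and ANIA_06396. It was at most 0.5 times the lower of them in 8 lower members (15.7%, beside 19.2%), namely ANIA_08778, ANIA_05859, ANIA_02672, ANIA_04720, ANIA_07170, JlbA and the C2H2 pair without unique reads, and also in sclB. Without this library the median log2 FC of the higher members was 1.78 instead of 1.50, and that of the lower members -1.64 instead of -1.44 on unique reads. All 23 higher calls and 46 lower calls were made without it. The 44 members that passed in all 6 fits without 1 library were 12 that rose and 32 that fell. No share over all listed genes is given beside these counts of calls, so they say nothing particular about transcription factors.

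**Figure D4:**
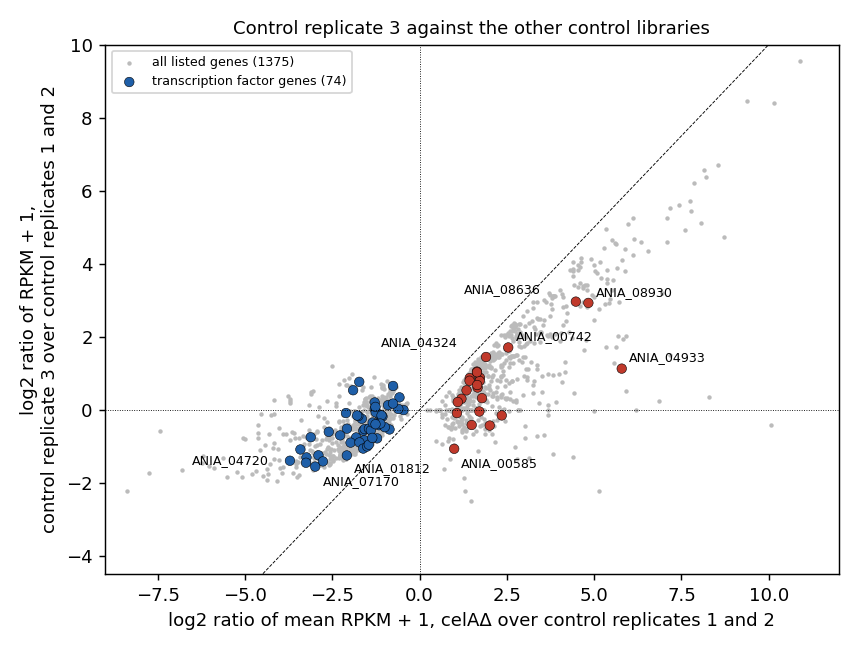
Each point is a listed gene, with the log2 ratio of mean RPKM + 1 of celAΔ over control replicates 1 and 2 on the horizontal axis and that of control replicate 3 over the same controls on the vertical axis. Red and blue points are the 23 members higher and the 51 lower in celAΔ, and the dashed line marks equal ratios. Of the higher members 16 lie above both other controls in control replicate 3, with ANIA_08930 and ANIA_08636 farthest up.

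Fungal regulators often lie beside the genes they control, and so the 3 loci on each side of every member were looked up in the order of the assembly. All 74 members were found there. Of their 444 neighbours 76 were listed (17.1%, beside 17.7% for all listed genes), and 57 of these 76 had a mean that differed in the direction of the member (75.0%, beside 73.7%). In all, 49 members had a listed neighbour (66.2%, beside 62.8%). The shares were thus near those of any listed gene. At least 2 neighbours that passed in the member's direction were found for 13 members (17.6%, beside 18.5% of all listed genes), so this too was near the background. Some of them are described as examples, chosen after their values were seen.

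ANIA_07867, at 80.6, 75.1 and 45.9 RPKM in the control against 3.75, 10.5 and 10.0 RPKM in celAΔ (log2 FC -3.05, SE 0.49, adjusted p = 0.00239), lay beside the beta-glucosidase gene ANIA_07865 (log2 FC -4.35), whose product releases glucose from short glucans, and the MFS alpha-glucoside transporter gene ANIA_07866 (log2 FC -4.75). ANIA_10659, described above, lay near another MFS alpha-glucoside transporter gene, ANIA_05304, with 17, 16 and 6 control reads and 1, 2 and 0 in celAΔ (a ratio of 17.2 per mapped read, 95% interval 5.46 to 86.9, exact), and an aconitate hydratase gene, ANIA_05300 (log2 FC -1.47). In these groups the regulator and a sugar transporter gene were both lower in celAΔ. Among the control libraries they did not always move alike. Replicate 3 was the highest control library in ANIA_10659, with 34, 20 and 52 reads, but the lowest in ANIA_05304. Beside ANIA_07867, whose lowest control library was replicate 3, that library was lowest in ANIA_07866 (203, 172 and 135 reads). In ANIA_07865 it was highest (77, 61 and 175 reads). ANIA_01584, at 51.8, 51.8 and 33.8 RPKM in the parent and 4.64, 9.25 and 9.29 RPKM in celAΔ (log2 FC -2.57, SE 0.39, adjusted p = 0.00216), lay beside genes for acetylornithine deacetylase (ANIA_01583, log2 FC -3.71) and an amine oxidase (ANIA_01586, log2 FC -3.21). Among the genes that rose, ANIA_08645 lay near a formate/nitrate family transporter gene (ANIA_08647), at 0.578, 0 and 0 RPKM in the control against 2.77, 5.35 and 3.08 RPKM in celAΔ, while its nearer neighbour ANIA_08644 had a log2 FC of -1.61. ANIA_08930 lay near ANIA_11151 (log2 FC 3.22) and ANIA_11153 (log2 FC 2.94), with 96, 100 and 459 and 33, 31 and 85 control reads, so that replicate 3 was high in both, as in ANIA_08930. ANIA_09025 lay near a metalloreductase gene (ANIA_09023, log2 FC 2.87), with 6, 17 and 69 control reads, and near ANIA_09028, which fell (log2 FC -1.62). The regulators' action on these neighbours was not measured.

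**Figure D5:**
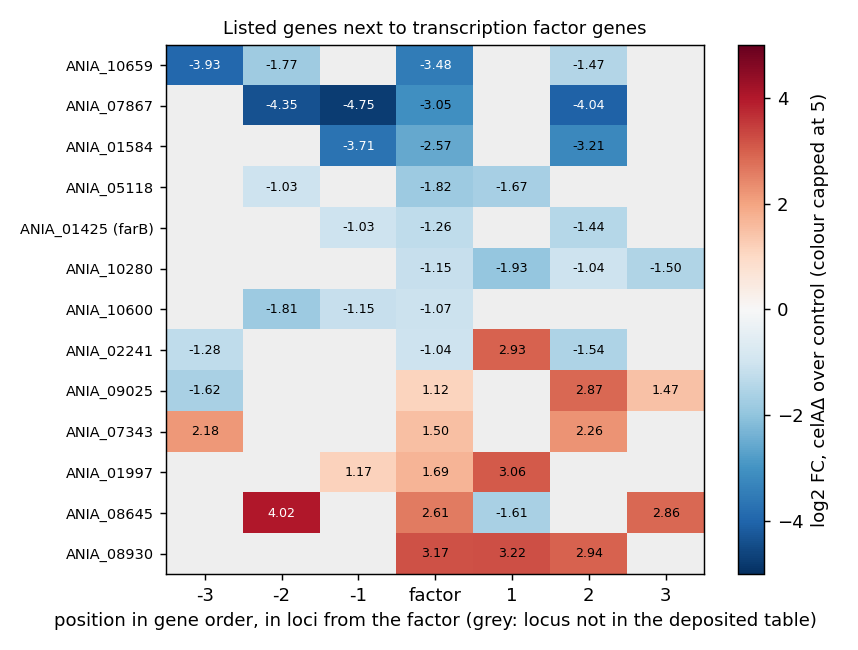
log2 FC (colour and number) of the 13 members with at least 2 passing neighbours in their direction and of the listed genes within 3 loci on each side, by position in gene order, with grey for loci that are not listed. ANIA_07867 lies beside genes at -4.35 and -4.75. Some of the fitted values rest on few reads. Among them are 4.02 near ANIA_08645, on 2 control reads, and -3.93 near ANIA_10659, on 3 celAΔ reads. Others are -4.04 near ANIA_07867, on 0, 0 and 2 celAΔ reads, and 3.06 near ANIA_01997, on 2, 0 and 1 control reads. The -1.50 near ANIA_10280 rests on 2, 3 and 2 control and 1, 1 and 1 celAΔ reads.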

How the data were processed

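RNA-Seq values of 3 control and 3 celAΔ libraries were used. The authors made them from stranded poly(A) libraries read on a MiSeq, and used CLC Genomics Workbench to map the reads onto transcripts of strain FGSC A4. The deposited counts are unique gene reads. The RPKM that the authors deposited also include reads with multiple hits. The authors deposited the mean RPKM per strain and, per gene, an unadjusted p-value of their own test, which was not used. The table holds only genes with mean RPKM at least 2-fold apart and past the authors' test, so no enrichment was computed.

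Mapped totals were derived from reads, length and RPKM, and 100.0% of values then came out whole within 0.01 reads. In the study's sheet of mapped reads the totals of control replicate 2 and celAΔ replicate 2 stand under each other's names. The totals served as library sizes in edgeR 4.0.16 (R 4.3.3), with the quasi-likelihood test, 2 groups, no normalization factors, a prior count of 0.125, two-sided p-values and Benjamini-Hochberg adjustment over 1375 genes. The SE was obtained by dividing the log2 FC, without sign, by the root of the F statistic. The script was tested on simulated data. A single value tested 3 against 3 cannot give an exact p below 0.1, so none is given. With 0 reads in every library of a strain a bound against 3 reads per library is given. Intervals cover counting error only.

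Alternatives were TMM, DESeq2 1.42.0, limma 3.58.1 on log2(RPKM + 1) and log2(RPKM + 0.1), a mean RPKM of at least 1, the replicate block, adjustment over 10516 loci, and leaving out each library. Counting reads with multiple hits was chosen after seeing the data. The members and lists were chosen with earlier results of these data known. Named genes are members with a name or process in the annotation, all members outside Zn(II)2Cys6, the 5 highest and 5 lowest Zn(II)2Cys6 genes by log2 FC with non-overlapping groups and over 3 reads in some library of each strain, the 5 most abundant members per strain, those with control replicate 3 at least 2-fold apart, and those that did not pass. Symbols and gene order came from ASM1142v1, in which 1372 listed genes were matched, and no coordinates were used because its build was not shown to be that of the study. Protein and promoter sequences were not used here. Tables and plots were made in Python 3.11.15 with pandas 2.3.3 and matplotlib 3.10.9.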

Additional observations from a re-analysis of the deposited data

How the results depend on the processing

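No member changed direction under any alternative that was run. The authors' selection largely fixed this in advance, as strain ranges in RPKM did not overlap in 100.0% of the listed genes. It therefore says nothing particular about transcription factors. The main counts were 23 higher and 49 lower members. For the settings that follow, apart from DESeq2 and adjustment over all loci, no count or share over all listed genes is given. Those counts of members are therefore no result about transcription factors in particular. Adjustment over all 10516 loci gave 8 higher and 18 lower, and DESeq2 gave 23 higher and 19 lower, where 2 members had no adjusted p. TMM factors gave 23 and 49, limma on log2(RPKM + 1) 23 and 41, limma on log2(RPKM + 0.1) 23 and 50, a mean RPKM of at least 1 23 and 47, and reads with multiple hits 23 and 51. Leaving out 1 library in turn gave 15 to 23 higher and 37 to 46 lower members, with 15 higher without control replicate 1, and the cause was not tested. The replicate block gave 22 higher and 45 lower, and under it ANIA_07552 (adjusted p = 0.0518, edgeR) and ANIA_03075 (adjusted p = 0.0526) were the named members that no longer passed. Same-numbered libraries showed no clear pairing: their correlations were 0.18, -0.18 and 0.15, and 2 of the 6 libraries correlated best with their own number. Being drawn from few libraries and selected genes, these correlations cannot show whether same-numbered cultures were handled together. Of the 42 named members 25 were lost over all loci and 15 of 40 in DESeq2, whose construction centres the listed genes, of which most are lower. limma on log2(RPKM + 1) did not pass ANIA_07012 and ANIA_07552. Depth limits ANIA_06430, ANIA_02392 and ANIA_01829, with at most 3 reads in each celAΔ library. The protein features planned for the members were not run.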
